A study of Oryza sativa with 36 samples.

Results

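The early response of rice roots to zaxinone was followed in 6 RNA-Seq libraries out of the 36 of the series: 3 libraries of roots collected 2 h after zaxinone was added and 3 of roots collected 2 h after a mock treatment. The members of the comparison were taken from the labels for tissue, time and treatment, and no measured value was used to choose them. Zaxinone is an apocarotenoid, a product of carotenoid cleavage, that promotes growth in rice. The plants were wild-type seedlings of the cultivar Nipponbare, 3 weeks old, grown in a hydroponic nutrient solution that contained phosphate. The zaxinone group received 5 µM of the compound. The mock group, which shared the genotype, age and solution, received none and was given acetone as the control. Shoots at 2 h and roots at 6 and 24 h, with 6 libraries each and mock libraries of their own, were used only to see where the early root response differed. The number of plants behind a library was not given in the sources used here.

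Cytokinins are plant hormones perceived by a phosphorelay, at the end of which response regulators are switched on. The type-A response regulators of rice, among them OsRR6 and OsRR10, are induced by cytokinin and damp its signal, and cytokinin oxidases/dehydrogenases such as OsCKX4 degrade the hormone. Glucosyltransferases attach a glucose unit to hormones, flavonoids and other small molecules and so change their activity or storage. Glycolysis, through phosphofructokinase, and the citrate cycle, entered at citrate synthase, break down sugars for energy and carbon skeletons. Roots are the tissue in direct contact with a compound dissolved in the nutrient solution.

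The 29509 identifiers of the 2 h root table are transcripts of rice loci, and 0 of them could be matched to the reference gene table used here. A name or role is therefore given only for loci that the study itself annotated, and 4 further transcripts are given by identifier alone. The only sequences of these loci in the sources used here were the primers the study designed for qRT-PCR. They are shown for 8 loci that the results turn on, to tie each locus number to a sequence, and they had no part in the RNA-Seq values. Os01g42370 and Os07g23570 had the largest increases among the named loci, Os07g28250 was the qRT-PCR locus called lower, Os03g24430 and Os02g11640 are glucosyltransferases, Os07g46920 is a dehydrogenase, Os02g10070 is citrate synthase and Os10g26570 is phosphofructokinase. All primers are written from 5′ to 3′ in lower case, with no part singled out.
Os01g42370 forward: ctccgctttcactcacttt
Os01g42370 reverse: caaccggtcctcaactattc
Os07g23570 forward: gccctgtctcactcatacgg
Os07g23570 reverse: caatagtgcaccctcaggca
Os07g28250 forward: tatacgagcacgaaacgcca
Os07g28250 reverse: tgcagggtgttgaagaggac
Os03g24430 forward: tcgtctacgtcagcttcg
Os03g24430 reverse: atctcaccacccagatgaa
Os02g11640 forward: tgtcaaagctcatggacag
Os02g11640 reverse: aggctttcgtacgaggat
Os07g46920 forward: tcatcgaggaggacatgaa
Os07g46920 reverse: ttatgcccagtgatgtacttg
Os02g10070 forward: gagcattggaataggatctcag
Os02g10070 reverse: ccttcttgcagtggttctc
Os10g26570 forward: gctgttcatggtgcatttg
Os10g26570 reverse: cttgtggacttgatgacttct

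The mock libraries held 26820866, 26485367 and 23696782 counted reads and the zaxinone libraries 30578678, 22404304 and 36469854. The unit of level is CPM, the reads of a transcript relative to the TMM-scaled total of its library. CPM values are not corrected for transcript length and are compared here only within a transcript. The tissue label was checked with 218 transcripts at least 32-fold higher in mock shoots than in mock roots at both 6 and 24 h. They took between 0.0270% and 0.0811% of the counts in the 2 h root libraries and between 7.56% and 8.14% in the 2 h shoot libraries. The reverse set of 304 root transcripts took between 4.61% and 5.45% in the root libraries and at most 0.0285% in the shoot libraries. None of the transcripts called below belonged to the shoot set, of which 70 were tested. The root set, with 304 tested, held 5 called higher and 1 called lower. Over all transcripts tested 0.636% were called, so the absence of calls among 70 says little about tissue.

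More transcripts were called higher than lower after 2 h of zaxinone, by a margin that depended on the threshold and the tool. By the quasi-likelihood test of edgeR, with transcripts called at an adjusted p below 0.05, 150 of 23573 transcripts were called (0.636%), 128 of them higher (0.543%) and 22 lower (0.0933%). The median log2 fold change was 1.40 among those called higher and -1.5 among those called lower, against -0.01 over all transcripts tested, of which 48.8% lay above 0. At an unadjusted p under 0.05, 1050 were higher and 754 lower. Of those called higher, 8 had a log2 fold change over 3, 29 between 2 and 3, 75 between 1 and 2 and 16 under 1. Of those called lower, 1 fell by more than 3 on this scale, 3 by between 2 and 3, 14 by between 1 and 2 and 4 by less than 1. Most were transcripts with a moderate level in mock-treated roots. Of the 128, 67 had between 10 and 100 CPM under mock (52.3%, against 44.4% of all tested). Another 6 had under 1 CPM (4.69%, against 10.5%). Together the 128 held between 0.579% and 0.625% of the counts in the mock libraries and between 1.63% and 1.66% in the zaxinone libraries, a description of transcripts chosen on these same values. In whole roots, a change in the number of cells of a type and a change in RNA per cell cannot be told apart.

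**Figure D1:**
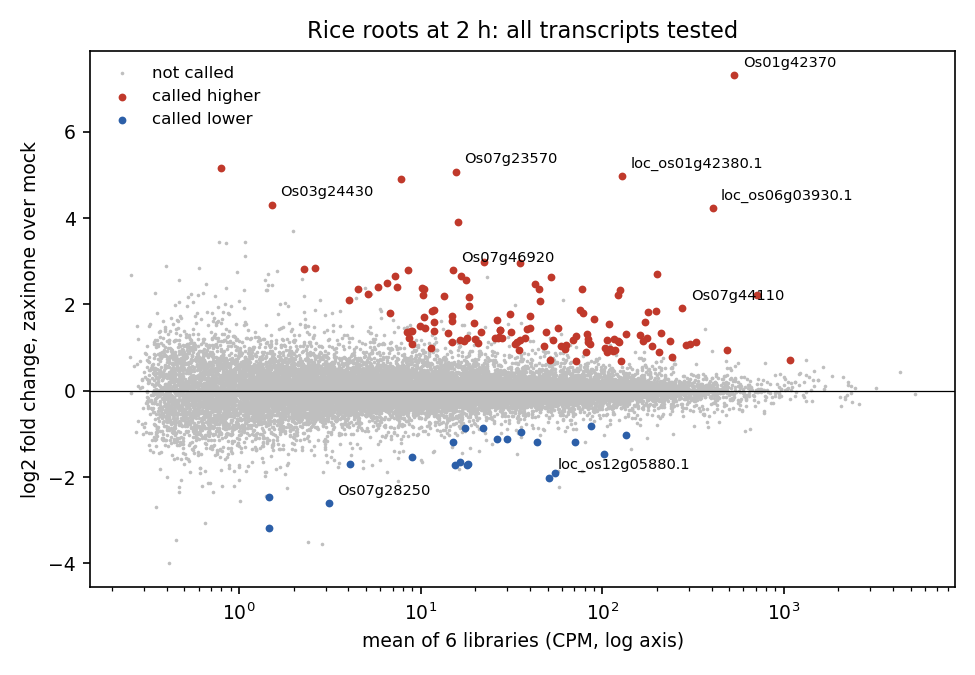
Log2 fold change of zaxinone over mock against the mean level of the 6 libraries (CPM, log axis) for each of the 23573 transcripts tested in roots at 2 h. The 128 called higher (red) lie at 0.69 or above and reach 7.31 for Os01g42370, and the 22 called lower (blue) lie below -0.82.

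The calls rested unevenly on single libraries. With each library left out in turn, 52 of the 128 higher calls and 2 of the 22 lower calls were made in all 6 fits, and 8 and 1 of them in none. The number called higher was 59 without Mock replicate 1, 69 without Zaxinone replicate 1 and 78 without Zaxinone replicate 3. The number called lower was 3 without Mock replicate 1, 4 without Zaxinone replicate 1, 11 without Zaxinone replicate 2 and 37 without Mock replicate 3. DESeq2 called all 150, among 327 higher and 141 lower.

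Os01g42370 led the response, and the study gave no role for it beyond its use as a qRT-PCR target. Its level was 7.70, 7.62 and 4.73 CPM in the mock libraries, from 112 to 208 reads, and 1219, 1078 and 893 CPM in the zaxinone libraries, from 23835 to 37189 reads. Every zaxinone library stood far above every mock library. The log2 fold change was 7.31 (standard error 0.25, edgeR, adjusted p = 3.47e-06), which is 159-fold, and it ranged from 7.10 to 7.42 when single libraries were left out. The share of all counts that this transcript took rose from at most 0.000776% to at least 0.0884%.

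The next locus number tested on chromosome 1 belongs to loc_os01g42380.1, whose increase was the third largest among called transcripts that averaged 1 CPM or more and whose groups were separate. It stood at 7.63, 11.2 and 5.03 CPM under mock and at 251, 290 and 208 CPM after zaxinone, again with a wide gap between the groups. This was a log2 fold change of 4.97 (standard error 0.29, edgeR, adjusted p = 0.000110). It was called in every fit that left out a library, with an adjusted p of at most 0.00334.

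Os07g23570, also a qRT-PCR target with no role given, was close to silent in mock-treated roots. It stood at 1.11, 1.0 and 0.55 CPM under mock, from 13 to 30 reads, and at 27.7, 33.5 and 29.6 CPM after zaxinone, from 740 to 1070 reads. The groups did not overlap, and the 3 zaxinone libraries lay close together. The log2 fold change was 5.07 (standard error 0.27, edgeR, adjusted p = 5.36e-05), a 33.6-fold increase.

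loc_os06g03930.1 was already present in mock-treated roots and rose further than any but 5 of the transcripts eligible to be named. It stood at 48.2, 38.8 and 36.2 CPM under mock and at 620.2, 976 and 716 CPM after zaxinone. Zaxinone replicate 2 was the highest, and no library of one group reached the other. This was a log2 fold change of 4.23 (standard error 0.21, edgeR, adjusted p = 5.36e-05), an 18.8-fold increase.

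Of the 15 loci chosen by the study for qRT-PCR to cover low to high responses, 5 were called higher, 1 was called lower and 9 were not called, with a median log2 fold change of -0.66, while 0.543% of all transcripts tested were called higher and 0.0933% lower. For all 15 the mock and zaxinone libraries did not overlap, which held for 12.9% of all transcripts tested. The loci were picked by the study with these libraries in view, so neither count is independent evidence of a response. Throughout, qRT-PCR loci means these 15 only, although the study also ran qRT-PCR on glycolysis and glucosyltransferase loci. Of these loci, 3 were called higher without Mock replicate 1, and the number called lower was 0 without Mock replicate 1 or Zaxinone replicate 1, 2 without Mock replicate 3 and 3 without Mock replicate 2. Os07g44110 stood at 112, 102 and 134 CPM under mock and at 453, 381 and 475 CPM after zaxinone. Its log2 fold change was 1.91 (standard error 0.15, edgeR, adjusted p = 0.000449), and it was called in all 6 fits with a library left out.

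The calls of another pair in this set did not hold in every fit with a library left out. Os01g05150 stood at 0.59, 0.89 and 0.42 CPM under mock and at 4.20, 3.75 and 5.87 CPM after zaxinone, with 10 to 24 reads in a mock library. Its log2 fold change was 2.84 (standard error 0.37, edgeR, adjusted p = 0.00973), and the adjusted p was 0.0702 without Mock replicate 1. Os06g11130 stood at 24.3, 56.6 and 23.9 CPM under mock, where replicate 2 was more than double the others, and at 112, 117 and 136 CPM after zaxinone. It had a log2 fold change of 1.80 (standard error 0.31, edgeR, adjusted p = 0.0375), and the adjusted p was 0.177, 0.0738, 0.0873 and 0.103 without Mock replicate 1, Mock replicate 3, Zaxinone replicate 1 and Zaxinone replicate 3.

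Os07g28250 was the 1 qRT-PCR locus called lower. It stood at 5.41, 6.99 and 3.63 CPM under mock and at 0.56, 0.90 and 1.16 CPM after zaxinone, from 17 to 42 reads in a zaxinone library. The groups did not overlap, and the log2 fold change was -2.60 (standard error 0.38, edgeR, adjusted p = 0.0173). The adjusted p was 0.0891 without Mock replicate 1 and 0.0645 without Zaxinone replicate 1. The other 7 qRT-PCR loci below 0 had log2 fold changes from -1.88 to -0.66 and adjusted p values from 0.0529 to 0.189 in edgeR, and DESeq2 called each of them.

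**Figure D2:**
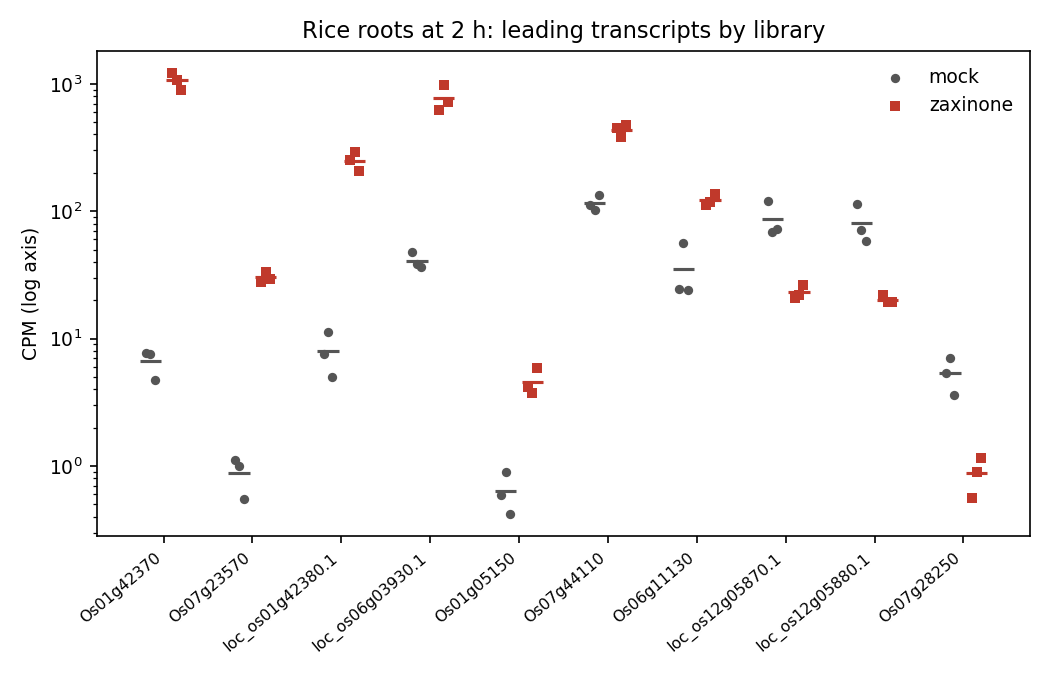
Level of 10 transcripts (CPM, log axis) in each mock library (grey circles) and zaxinone library (red squares) of roots at 2 h, with the group means as bars. They are the called loci of the 15 chosen for qRT-PCR to cover low to high responses, and the transcripts given by identifier. They are not the 10 largest changes. In each of the 10 the groups are separate, from 4.73 to 7.70 CPM under mock against 893 to 1219 CPM after zaxinone for Os01g42370.

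The transcripts that fell included a run of neighbours on chromosome 12. loc_os12g05880.1 stood at 114, 71.8 and 58.7 CPM under mock and at 22.2, 19.3 and 19.2 CPM after zaxinone. The neighbouring loc_os12g05870.1 stood at 120.4, 68.7 and 72.3 CPM under mock and at 20.9, 22.0 and 26.3 CPM after zaxinone. For both, Mock replicate 1 was the highest library, and the lowest mock library still lay above the highest zaxinone library. Their log2 fold changes were -2.01 (standard error 0.23, edgeR, adjusted p = 0.00438) and -1.91 (standard error 0.22, edgeR, adjusted p = 0.00478). These 2 were the lower calls that were made in all 6 fits with a library left out.

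Rice locus numbers follow the order of the loci along a chromosome, so called loci with close numbers are neighbours. Of the 150 called loci, 17 had another called locus within 50 numbers (11.3%), against 3.05% of the 23556 tested loci. They formed 7 runs, and each run went in 1 direction. The run on chromosome 12 had 4 loci with log2 fold changes from -2.01 to -1.70, and a run on chromosome 9 had 3 with log2 fold changes from -2.46 to -1.54, so that 7 of the 22 lower calls lay in these 2 runs. The largest increase sat in a run as well, as Os01g42370 and loc_os01g42380.1 were neighbours. Os07g44110 had a called neighbour with a log2 fold change of 1.18. The remaining 3 runs, on chromosomes 3, 11 and 12, were pairs called higher, with log2 fold changes from 1.07 to 2.80. The pair on chromosome 7 and the pair called higher on chromosome 12 each spanned 3 tested transcripts, all in the direction of the pair. The other runs spanned no tested transcript besides the called loci, so agreement within them adds nothing to the calls. Whether neighbours of similar sequence share reads was not tested.

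Among the 7 loci of cytokinin signalling and metabolism that the study named, 1 was called higher and none lower, with a median log2 fold change of 0.25. Over all transcripts tested, 0.543% were called higher and 0.0933% lower. The study named OsRR6, OsRR10 and OsCKX4 for their increase in these same 2 h roots. The count is therefore not independent evidence of a response. The response regulator OsRR10 (Os02g35180) stood at 18.6, 24.3 and 22.4 CPM under mock and at 54.1, 50.4 and 42.8 CPM after zaxinone. The groups did not overlap, and the log2 fold change was 1.17 (standard error 0.16, edgeR, adjusted p = 0.00973), a 2.25-fold increase. The adjusted p was 0.0561 without Mock replicate 1 and 0.0622 without Zaxinone replicate 1, with log2 fold changes between 1.07 and 1.26 over all libraries left out.

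The response regulator OsRR6 (Os04g57720) stood at 1.67, 2.34 and 2.58 CPM under mock and at 6.69, 5.02 and 4.29 CPM after zaxinone. Its log2 fold change of 1.28 (standard error 0.29) was close to that of OsRR10, but with 45 to 204 reads in a library it was not called by edgeR (adjusted p = 0.128) and was called by DESeq2 (adjusted p = 0.00821). The cytokinin oxidase/dehydrogenase OsCKX4 (Os01g71310) stood at 5.96, 8.36 and 4.40 CPM under mock and at 12.6, 9.09 and 17.4 CPM after zaxinone. The groups lay close, with 8.36 CPM in the highest mock library and 9.09 CPM in the lowest zaxinone library. Its log2 fold change was 1.06 (standard error 0.30, edgeR, adjusted p = 0.274), and DESeq2 called it (adjusted p = 0.0344).

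For the other 4 cytokinin loci, whose mutants the study used, the groups overlapped. The cytokinin biosynthesis loci Os03g49050, Os05g51390 and Os10g33900 had log2 fold changes of 0.25 (standard error 0.42), -0.40 (standard error 0.38) and -0.07 (standard error 0.46), with at most 2.16 CPM in any library. The regulatory locus Os06g08440 stood at 28.8, 25.0 and 26.0 CPM under mock and at 21.0, 23.5 and 26.1 CPM after zaxinone, a log2 fold change of -0.18 (standard error 0.15, edgeR, adjusted p = 0.903).

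The study listed 13 glucosyltransferase loci as related to cytokinin glucosylation, and gave the reactions assigned to them. It selected them for differences in the 24 h roots of this series. At 2 h, 10 were tested, 1 was called higher and none lower, against 0.543% and 0.0933% of all transcripts. Of the 10, 9 had a log2 fold change above 0, against 48.8% of all transcripts, with a median of 0.34. The called locus was Os03g24430, assigned to the glucosylation of brassinosteroids and quercetin. It stood at 0.19, 0.11 and 0.13 CPM under mock and at 3.08, 2.76 and 2.85 CPM after zaxinone, which are 3 to 5 reads in a mock library and 61 to 103 in a zaxinone library. The log2 fold change was 4.31 (standard error 0.42, edgeR, adjusted p = 0.00191), and it was called in every fit that left out a library, but it was not tested when at least 10 counts were required in every library. Over the summed reads, 258 against 11, the ratio after scaling was 20.5 with a 95% interval from 11.3 to 41.6, which covers counting error only.

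Os02g11640, assigned to dinitrotoluene derivatives, came next in the list. It stood at 0.59, 1.63 and 0.93 CPM under mock and at 3.05, 5.97 and 4.62 CPM after zaxinone, without overlap. Its log2 fold change was 2.10 (standard error 0.43) and was not called by edgeR (adjusted p = 0.0807), though DESeq2 called it (adjusted p = 0.000245). Without Mock replicate 2, edgeR called it as well (adjusted p = 0.0409). The other 8 tested loci had log2 fold changes from -0.48 to 0.57 with overlapping groups, and among them were loci assigned to flavonoids, crocetin, benzoxazinoids, phenolic acids and hydroquinone. Os01g53430 and Os05g45100, both assigned to 3-deoxyanthocyanidins, had 21 and 34 reads over the 6 libraries and were not tested. Os02g42280, the locus assigned to zeatin, a cytokinin, had no value in the 2 h root table used here, and at 24 h its log2 fold change was 2.23 (standard error 0.64, edgeR, adjusted p = 0.474). The median log2 fold change of the 10 loci was 0.52 at 6 h. It was 2.25 at 24 h, the time whose values chose the list, and edgeR called none of the 10 there, with adjusted p values of at least 0.241.

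Of 24 loci that the study listed under sugar metabolism, selected for differences in the 6 h roots, 3 were called higher at 2 h and none lower, where 0.543% of all transcripts tested were called higher and 0.0933% lower. The median log2 fold change of the 24 was 0.04, with 15 above 0 and 9 below, while 48.8% of all transcripts tested lay above 0. Citrate synthase (Os02g10070), which joins acetyl-CoA and oxaloacetate at the entry of the citrate cycle, stood at 179, 190.1 and 192 CPM under mock. It stood at 389, 391 and 389 CPM after zaxinone, with very little spread in either group. Zaxinone raised it by a log2 fold change of 1.06 (standard error 0.11, edgeR, adjusted p = 0.00312), a 2.09-fold increase.

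The ATP-dependent phosphofructokinase Os10g26570, which phosphorylates fructose 6-phosphate in glycolysis, stood at 83.6, 62.7 and 87.7 CPM under mock and at 195, 185 and 198 CPM after zaxinone. The groups did not overlap, and the log2 fold change was 1.31 (standard error 0.15, edgeR, adjusted p = 0.00422). With all 18 root libraries in one fit the log2 fold change was 1.29 and the adjusted p 0.0537. The largest increase of the list belonged to Os07g46920, assigned to secoisolariciresinol dehydrogenase, an enzyme of lignan synthesis and not of sugar breakdown. It stood at 3.0, 4.79 and 3.59 CPM under mock and at 19.4, 29.2 and 30.7 CPM after zaxinone. The log2 fold change was 2.80 (standard error 0.26, edgeR, adjusted p = 0.00119), a 6.95-fold increase.

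The other 21 sugar metabolism loci were not called, with log2 fold changes from -0.57 to 1.65. The diphosphate-dependent phosphofructokinase Os09g12650 stood at 1.56, 1.82 and 6.85 CPM under mock and at 12.9, 9.45 and 9.41 CPM after zaxinone. Mock replicate 3 was far above the other mock libraries, the log2 fold change was 1.65 (standard error 0.50, edgeR, adjusted p = 0.325), and the locus was called without that library, with a log2 fold change of 2.63 (adjusted p = 0.00560). The 2-oxo acid decarboxylase Os01g06660 stood at 17.7, 20.5 and 21.2 CPM under mock and at 30.2, 29.0 and 33.1 CPM after zaxinone, a log2 fold change of 0.63 (standard error 0.14, edgeR, adjusted p = 0.124). DESeq2 called both, with adjusted p = 0.0222 and 0.0182. The 4 pyruvate kinase loci had log2 fold changes from -0.21 to 0.30, the 3 aldolase loci from -0.57 to 0.05, and the 3 subunits of the pyruvate dehydrogenase complex from -0.25 to -0.13. Separate groups were seen for 12 of the 24 loci, 8 of them higher after zaxinone (12.9% of all transcripts tested had separate groups in either direction).

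**Figure D3:**
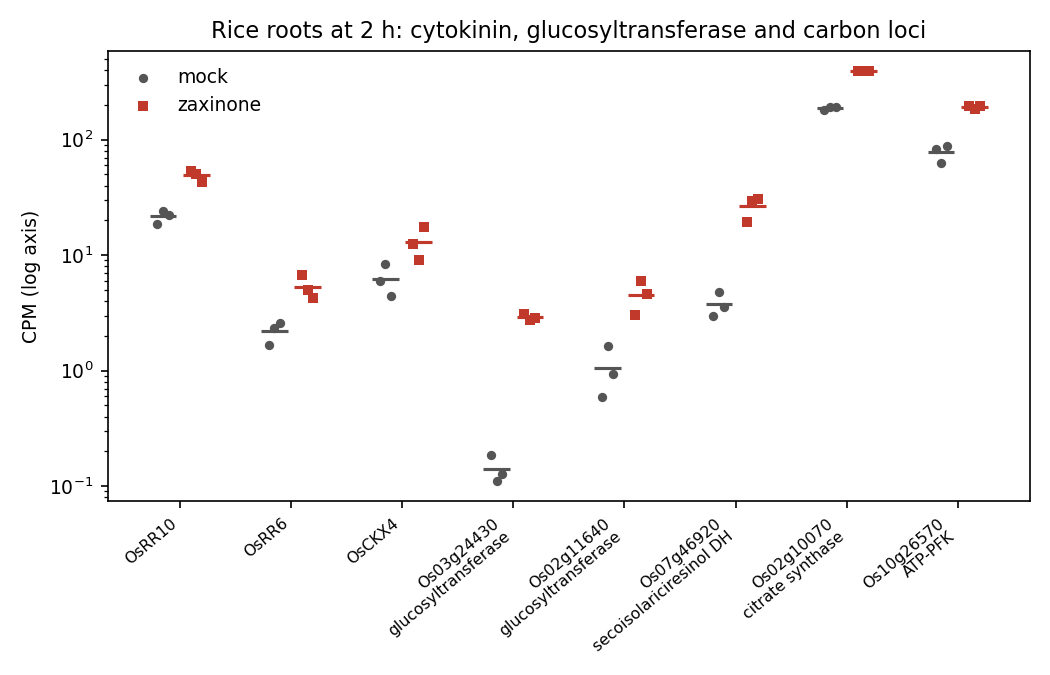
Level of 8 loci annotated by the study (CPM, log axis) in each mock library (grey circles) and zaxinone library (red squares) of roots at 2 h, with group means as bars. The groups are separate for each locus, most widely for the glucosyltransferase Os03g24430, and lie closest for OsCKX4 at 8.36 against 9.09 CPM.

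**Figure D4:**
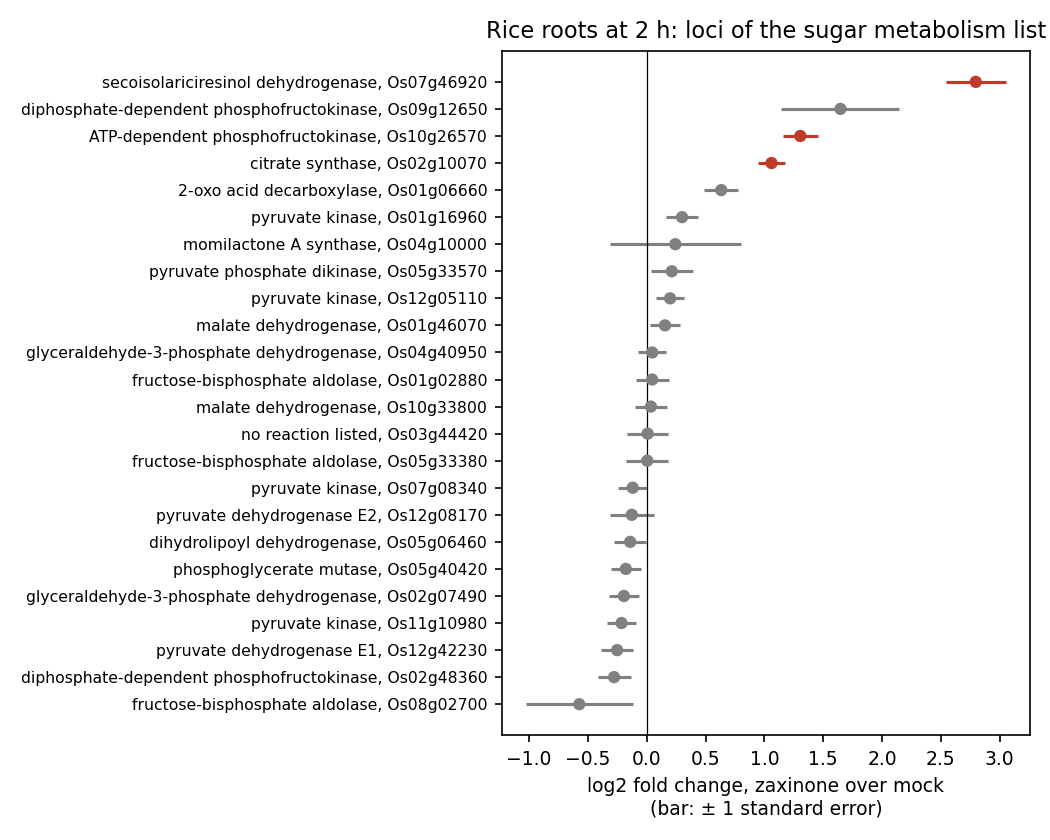
Log2 fold change of zaxinone over mock with its standard error (bar) for the 24 loci of the sugar metabolism list in roots at 2 h. The 3 called loci (red) lie at 1.06, 1.31 and 2.80, and the other 21 (grey) spread around a list median of 0.04.

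Most transcripts called at 2 h had the same direction at 6 and 24 h in roots, while in shoots the median change of those called higher was close to 0. The transcripts were chosen on their 2 h values, so smaller values elsewhere are described and only the interaction is a test of the difference. Each interaction used the same 2 h root libraries that made the calls. Its overlap with those calls, and a larger effect in 2 h roots among them, were therefore favoured by the choice. At 6 h, 118 of 127 transcripts called higher at 2 h were again above 0 (92.9%, against 49.3% of all tested), with a median log2 fold change of 0.60 where it had been 1.39. All 21 measured transcripts called lower at 2 h were below 0 at 6 h, with a median of -0.82. At 6 h itself 384 transcripts were called (1.61%), and 49 were called higher at both times, which is 38.3% of the higher calls at 2 h and 25.7% of those at 6 h. Called lower at both times were 8, or 36.4% of the lower calls at 2 h and 4.15% of those at 6 h. At 24 h, 114 of 126 transcripts called higher at 2 h were above 0 (49.9% of all tested) and 18 of 20 called lower were below 0 (50.1% of all tested), with medians of 0.84 and -0.75. At 24 h itself 1 transcript was called, Os01g42370, which was also called higher at 2 h.

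The difference of the effect from that at 6 h passed the interaction test for 20 of 24601 transcripts (0.0813%), 15 of which were among the 128 called higher at 2 h, and for each of these 15 the effect was larger at 2 h. Without Mock replicate 2, Mock replicate 3, Zaxinone replicate 1 or Zaxinone replicate 3, the number was 69, 39, 12 or 7. loc_os01g42380.1 had a log2 fold change of 1.32 (standard error 0.12) at 6 h, lower than at 2 h by 3.64 (standard error 0.31, edgeR, adjusted p = 0.000431). Its mock level at 6 h was 32.5 ± 3.42 CPM (SD, n = 3) and its zaxinone level 81.0 ± 11.6 CPM, so that the mock level was higher and the treated level lower than at 2 h. loc_os06g03930.1 had a log2 fold change of 1.69 (standard error 0.17) at 6 h, lower than at 2 h by 2.53 (standard error 0.27, edgeR, adjusted p = 0.00368). Here the mock level at 6 h was 39.7 ± 5.98 CPM (SD, n = 3), close to that at 2 h, and the treated level was 128 ± 27.3 CPM.

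The annotated loci did not pass this test. Citrate synthase had a log2 fold change of 0.34 (standard error 0.09) at 6 h, with an adjusted p of 0.0803 for the difference from 2 h in edgeR, and OsRR10 one of 0.32 (standard error 0.14), with an adjusted p of 0.244. For Os07g23570 the effect at 2 h minus that at 6 h was 0.16 (standard error 0.76, edgeR, adjusted p = 0.975), too wide an error to tell a change from none. Against roots at 24 h, 1 of 24512 transcripts differed (0.00408%), and 0 did when any single 2 h library was left out. Without Zaxinone replicate 2 of 24 h, a choice made after seeing the data, 4 transcripts differed. OsRR10 had a log2 fold change of 0.93 (standard error 0.27) and OsCKX4 one of 1.07 (standard error 0.22) at 24 h, near their values at 2 h, and neither was called there. Lower than at 2 h were citrate synthase at -0.08 (standard error 0.25), Os10g26570 at 0.33 (0.42) and loc_os06g03930.1 at 1.18 (0.35). Their differences from 2 h had adjusted p values of 0.662, 0.856 and 0.0765 in edgeR. For citrate synthase and OsRR10 the standard errors were larger than at 6 h, so few passing differences do not show that effects persisted.

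Against shoots at 2 h, the effect differed for 53 of 25688 transcripts (0.206%), and 52 of these were called higher in roots. Without Mock replicate 2 the number was 121, and without any other single 2 h root library it was between 37 and 64. Of the 128, 112 were tested in shoots, where 76 lay above 0 (67.9%, against 49.6% of all tested) with a median log2 fold change of 0.09. Of the 22 called lower, 7 were tested in shoots, where 5 lay below 0, and 0 passed the test of the difference. Os01g42370 was at 1.03 ± 0.43 CPM under mock and 0.70 ± 0.18 CPM after zaxinone in shoots (SD, n = 3), and the effect in roots was larger by 7.84 (standard error 0.43, edgeR, adjusted p = 4.56e-06). Citrate synthase was well expressed in shoots, at 61.5 ± 1.0 CPM under mock and 60.7 ± 3.13 CPM after zaxinone, and the effect in roots was larger by 1.06 (standard error 0.12, edgeR, adjusted p = 0.00153). OsRR10 was at 86.6 ± 11.9 and 81.4 ± 9.97 CPM in shoots, and the effect in roots was larger by 1.24 (standard error 0.20, edgeR, adjusted p = 0.0192). In shoots loc_os06g03930.1 lay between 39.9 and 42.1 CPM under mock and between 52.2 and 66.2 CPM after zaxinone. Its log2 fold change there was 0.59 (standard error 0.09, edgeR, adjusted p = 0.996), and it was not called.

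**Figure D5:**
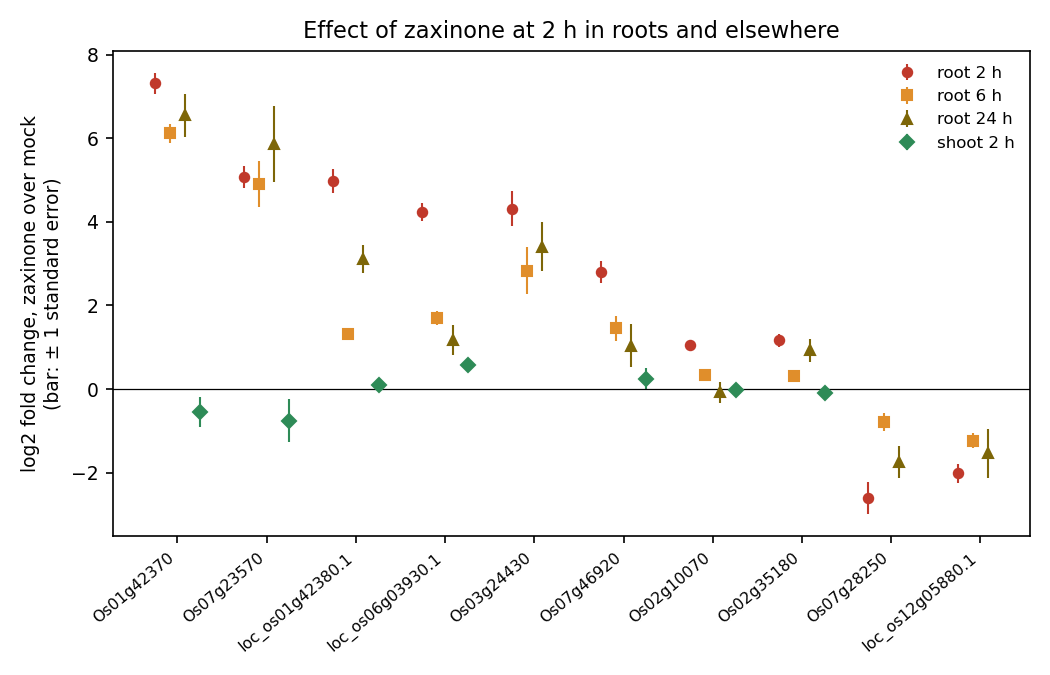
Log2 fold change of zaxinone over mock with its standard error (bar) for 10 transcripts in roots at 2, 6 and 24 h and in shoots at 2 h, each against its own mock libraries. Shoot values lie between -0.75 and 0.59 where measured, while in roots loc_os01g42380.1 fell from 4.97 at 2 h to 1.32 at 6 h and Os07g23570 stayed at 4.90 or above.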

How the data were processed

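Paired-end RNA-Seq reads of rice roots and shoots had been trimmed with Trimmomatic, aligned with HISAT2 and counted with HTSeq, all within the LSTrAP workflow, against rice genome v7.0, obtained from Phytozome. Tool versions and the strand setting were not given in the sources used here. The deposited counts are raw reads per transcript without normalization, and the table of 2 h roots lists transcripts with at least 2 counts over its 6 libraries. The columns of the authors' own comparison (log2 fold change, p-value and adjusted p-value from DESeq2) were not used.

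For the comparison, edgeR 4.0.16 was run in R 4.3.3 (TMM, filterByExpr, glmQLFit and glmQLFTest, Benjamini-Hochberg adjustment over all transcripts tested). The 6 libraries of 2 h roots made up the fit, without a block. Interactions with roots at 6 or 24 h, or shoots at 2 h, were fitted over 12 libraries each, with a transcript absent from a table set to 0. An exact permutation test of 3 against 3 cannot go below p = 0.1, so overlap is stated instead. The pipeline was tested on simulated data. Replicates of a group differed by a chi-square of at least 18.1 per degree of freedom, so none was a copy and each was counted as a sample of its own. Shared plants or batches are not excluded by this. Their log2 CPM correlated with r from 0.972 to 0.987. Between the mock and zaxinone groups r was from 0.969 to 0.982, an overlapping range. P-values measure the spread between libraries.

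The transcripts given by name were the loci named by the study, and, among the 149 calls that averaged 1 CPM or more and had separate groups, the 15 with the largest and the 10 with the smallest log2 fold change and the 10 with the highest mean level, 33 in all. Of these, 8 were loci of the study and 4 are printed by identifier, because the identifiers could not be paired with gene names. The remaining 14 higher and 7 lower had log2 fold changes from 0.71 to 4.89 and from -3.19 to -1.65. Lists by product words were not run for the same reason. The comparison and the lists were chosen with earlier results of these data known.

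Alternatives were DESeq2 1.42.0, its size factors in edgeR, no filter, at least 10 counts in every library, the replicate number as a block, all 18 root libraries in one fit, and each library left out.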

Additional observations from a re-analysis of the deposited data

Results flagged for a closer look

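The effect of zaxinone at 2 h in roots differed from another time or tissue, by the interaction test in edgeR, for 8 of the transcripts given by name. Against roots at 6 h, the adjusted p was 0.000431 for loc_os01g42380.1 and 0.00368 for loc_os06g03930.1. Against shoots at 2 h, it was 4.56e-06 for Os01g42370, 1.74e-05 for each of loc_os01g42380.1 and loc_os06g03930.1, 0.000692 for Os07g23570, 0.00153 for Os02g10070, 0.0113 for Os10g26570, 0.0192 for Os02g35180 (OsRR10) and 0.0221 for Os07g46920. The sizes behind these values were, as the effect in roots minus that in shoots on the log2 scale, 7.84 for Os01g42370, 4.85 for loc_os01g42380.1, 3.62 for loc_os06g03930.1, 5.80 for Os07g23570, 1.06 for Os02g10070, 1.18 for Os10g26570, 1.24 for Os02g35180 and 2.53 for Os07g46920. Os07g46920 had a mock level of 17.7 ± 7.33 CPM (SD, n = 3) in shoots, where roots at 2 h had 3.80 ± 0.91 CPM.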

How the results depend on the processing

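The numbers of calls depended on the tool and on single libraries. For the named loci with an adjusted p under 0.35, 295 results under the alternatives kept their direction and side of the threshold. Another 30 newly passed it, 10 no longer passed it and none changed sign. That limit was set on these same libraries, so a change of sign was unlikely from the start. Above it, signs did change: the log2 fold change of Os05g33380 ranged from -0.14 to 0.21 with single libraries left out. DESeq2 called 327 transcripts higher and 141 lower, 5 sugar metabolism, 2 glucosyltransferase and 3 cytokinin loci higher and 8 qRT-PCR loci lower. Without a filter, 43 transcripts were lower, 2 glucosyltransferase loci were higher and 5 qRT-PCR loci were lower, and 3 transcripts differed from 24 h. With at least 10 counts in every library, 0 glucosyltransferase loci were higher, as the called locus was no longer tested, and 2 qRT-PCR loci were lower. With all 18 root libraries in one fit, 34 transcripts and 4 qRT-PCR loci were lower.

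Leaving out single libraries gave between 59 and 166 higher calls and between 3 and 37 lower calls. It gave between 1 and 2 glucosyltransferase loci, between 3 and 5 qRT-PCR loci and between 0 and 1 cytokinin loci called higher, and between 0 and 3 qRT-PCR loci called lower. Between 7 and 69 transcripts differed from 6 h, 0 from 24 h and between 37 and 121 from shoots. Without Zaxinone replicate 2 of 24 h, chosen after seeing the data, 4 differed from 24 h.

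Same-numbered libraries correlated in their deviations with r of 0.0318, 0.194 and -0.00136, so the numbers were not taken to pair them. With the replicate number as a block, 35 transcripts were lower and 168 higher, 2 glucosyltransferase loci were higher, 3 qRT-PCR loci were lower, and 5 and 0 transcripts differed from 6 and 24 h.

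Tested loci with a called neighbour were 1.26% within 20 numbers and 6.02% within 100, beside 8.67% and 13.3% of called loci. With DESeq2 calls, 89 loci had a called neighbour, 19.0% of those called and 9.19% of those tested. With an 8-fold limit, the shoot set took at most 1.46% and the root set at least 9.19% of counts in 2 h roots. Lists by product words were not run.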

Other observations

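The transcripts called lower at 2 h stood unusually high in the 2 h mock roots themselves. With one normalization over the 18 root libraries and 0.5 CPM added, their median log2 ratio of the mock level at 2 h to that at 6 h was 1.04, and to that at 24 h it was 2.24. For all transcripts tested these medians were below 0.01. The mock level was higher at 2 h than at 24 h for 21 of the 22 (95.5%), against 50.5% of all tested. The 2 h mock libraries took part in calling these transcripts, so the ratios are a description and not a test. For loc_os12g05870.1, the mock level was 87.1 ± 28.9 CPM at 2 h, 16.1 ± 3.78 CPM at 6 h and 2.78 ± 0.38 CPM at 24 h (SD, n = 3 each, each time normalized by itself). After zaxinone it stood at 23.1 ± 2.83 CPM at 2 h, between the mock levels of 2 and 6 h. For the 128 transcripts called higher, the median ratio of the mock level at 2 h to that at 24 h was 0.26 on the log2 scale. Time after treatment and time of day cannot be told apart in these mock libraries.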
